A study of Mus musculus with 6 samples.

Results

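Heat shock chaperones are proteins that hold, fold or refold other proteins. In the cytosol, HSP70 works with J-domain partners that bring it substrates, with HSP110 and BAG proteins that make it release its nucleotide, and with HSP90, which matures signalling proteins. In the mitochondrial matrix, the HSP60 barrel and its HSP10 lid fold imported proteins. Small heat shock proteins hold unfolded chains until HSP70 can act. Many of these genes are targets of the heat shock factor HSF1, and their induction after ischemia of the brain is well known.

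The 9 heat shock chaperone genes described here were Hsph1, Dnajb1, Hspe1, Hspd1, Hsp90aa1, Hsp90ab1, Bag3, Cryab and Hspa4. They were picked by gene name, 1 row each, from the 41386 genes of the deposited table, and all 9 were among the 18569 genes with enough counts to be tested. The samples were hippocampi of C57BL/6 mice (C57BL/6J in the study's methods), 56 days old, in 2 groups of 3 libraries. The IR24 group had a filament in the left middle cerebral artery for 1.5 h, followed by 24 h of reperfusion, whereas the Sham group had the same surgery without the filament. Per the study's methods, only the hippocampus on the operated side was taken. The methods, in a passage on the proteomic and transcriptomic work, give 3 hippocampi pooled per mass spectrometry run. The legend of the study's RNA-seq figure names 3 hippocampal samples per replicate. The errors here may therefore describe pools rather than single mice. The middle cerebral artery supplies mainly the cortex and striatum, and the hippocampus lies at the border of its territory, which is a limit of this model.

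The total count was 37527226 to 39553637 in the IR24 libraries and 37493042 to 44788547 in the Sham libraries. RNA of the choroid plexus, the tissue in the ventricle beside the hippocampus, varied within both groups. The summed level of its 8 markers was 1601, 3618 and 35.7 CPM (counts scaled to library size) in IR24 replicates 1, 2 and 3, and 39.0, 2692 and 4439 CPM in the Sham libraries in that order. The summed level of 10 neuronal markers was 2430 to 4580 CPM in IR24 and 7820 to 8160 CPM in Sham, and 9 of these markers fell. In a bulk sample, fewer cells of a type and less RNA per cell cannot be told apart.

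Of the 9 genes, 7 rose in IR24, 2 (Hsp90ab1 and Hspa4) did not pass the test and 0 fell, and all 9 passed where libraries were scaled by their size alone, which raised the median log2 fold change of all genes tested from 0.03 to 0.28. The rises ran from 1.79-fold for Dnajb1 to 4.91-fold for Bag3. A gene was called when edgeR's quasi-likelihood test gave an adjusted p under 0.05 and the fold change was over 1.2, and by that rule 41.8% of all genes tested were called, 21.8% higher in IR24 and 19.9% lower. The 0 falls were 0 also at an unadjusted p under 0.05 and by DESeq2 and limma-voom. Of the 7 rises, 6 were over 2-fold, a size called higher in 10.2% of genes tested. Among the 7757 genes with a mean count at least that of Bag3, the least counted of the 9, the share that was higher was 21.9%. The 9 genes were chosen with earlier results of these data known, so setting them beside such shares is a description and not a test. Levels of all 9 genes were higher in each IR24 library than in any Sham library, which held with IR24 above for 29.3% of genes tested and in either direction for 57.4%. For each gene an exact two-sided permutation test of the CPM values over libraries gave p = 0.1, the smallest that 3 libraries against 3 allow.

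Together the 9 genes took 0.783%, 0.775% and 0.668% of the counts in IR24 replicates 1, 2 and 3, and 0.366%, 0.374% and 0.372% in Sham. The HSP90 pair Hsp90aa1 and Hsp90ab1 alone held 0.480% to 0.542% in IR24 and 0.280% to 0.286% in Sham. The median log2 fold change was 1.10 over the 9 genes and 0.03 over all genes tested.

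**Figure D1:**
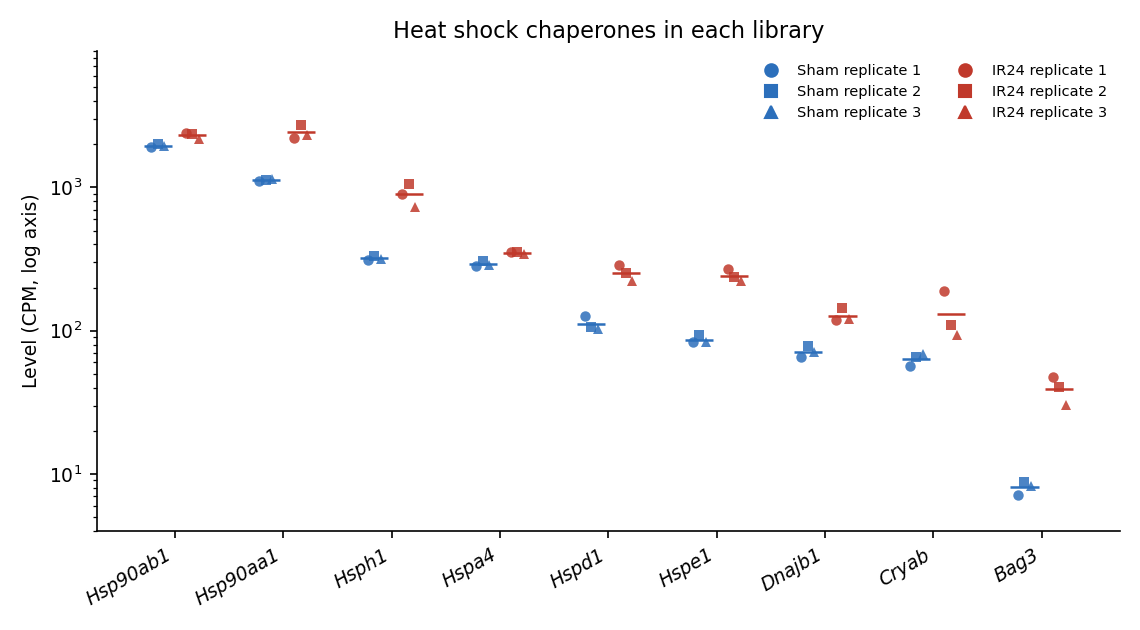
Level of each heat shock chaperone in every library, in CPM on a log axis, with genes ordered by their Sham mean. Blue points are the 3 Sham libraries, red points the 3 IR24 libraries, and short lines the group means. The groups do not overlap for any of the 9 genes, the gap is widest for Bag3, and IR24 replicate 1 lies above the other IR24 libraries for Cryab.

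Bag3 showed the largest change. It encodes a BAG protein that releases nucleotide from HSP70 and links HSP70 and small heat shock proteins to autophagy. Its row lies at chr7:129046093-129069890 on the plus strand of the BALB/cJ assembly, whose annotation the table uses. Counts were 2175, 1617 and 1205 in IR24 replicates 1, 2 and 3 and 278, 357 and 282 in the Sham libraries. In CPM these were 47.7, 40.4 and 30.1 against 7.12, 8.78 and 8.19. The IR24 libraries differed among themselves by more than the Sham libraries did, but the lowest of them was still far above every Sham library. The mean was 39.4 ± 8.85 CPM in IR24 and 8.03 ± 0.84 CPM in Sham (SD, n = 3 each), which is 2.30 on the log2 scale with a standard error (SE) of 0.18 (edgeR adjusted p 0.000293). That change was larger than those of 96.5% of genes tested.

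Hsph1 encodes the HSP110 protein of the cytosol, a large relative of HSP70 that acts as its nucleotide exchange factor. Its row lies at chr5:150086667-150108665 on the minus strand. Levels were 901, 1054 and 732 CPM in IR24 replicates 1, 2 and 3 and 313, 331 and 315 CPM in Sham. IR24 replicate 2 was the highest and replicate 3 the lowest of its group, and the Sham libraries were close to each other. The mean rose from 319.7 ± 10.1 to 896 ± 161 CPM (SD, n = 3 each), 2.80-fold, which is 1.49 on the log2 scale (SE 0.15, edgeR adjusted p 0.000592).

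Hspa4 encodes another HSP110 family protein (Apg-2). Its row lies at chr11:51011636-51052642 on the minus strand. Its levels were 354, 353 and 345 CPM in IR24 and 283, 307 and 289 CPM in Sham. The groups were apart, yet the difference was small. The log2 fold change of 0.26 (SE 0.09) missed the threshold at an edgeR adjusted p of 0.0545, and the fold was also just short of the limit of 1.2. By DESeq2, by limma-voom and without IR24 replicate 1 the adjusted p was 0.00991, 0.0395 and 0.00294, and there Hspa4 missed the call on its fold alone. In the Sham libraries the counts of Hspa4 were 0.907, 0.926 and 0.918 times those of Hsph1, and in the IR24 libraries 0.393, 0.335 and 0.471 times. This ratio was lower in every IR24 library, by 1.21 on the log2 scale (exact permutation p = 0.1).

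Dnajb1 encodes the J-domain protein (HSP40) that brings unfolded proteins to HSP70 and starts its cycle. Its row lies at chr8:81243054-81246807 on the plus strand. Levels were 118, 144 and 119.9 CPM in IR24 replicates 1, 2 and 3 and 65.1, 77.7 and 71.1 CPM in Sham. It rose by 0.84 on the log2 scale (SE 0.11, edgeR adjusted p 0.00125), the smallest of the 7 rises. Its counts relative to those of Hsph1 were 0.131 to 0.164 in IR24 and 0.208 to 0.235 in Sham, so that the ratio was lower in every IR24 library, by 0.63 on the log2 scale (exact permutation p = 0.1).

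Hsp90aa1 and Hsp90ab1 encode the cytosolic HSP90 proteins, the first known as the inducible form and the second as the constitutive form. Hsp90aa1 lies at chr12:109101603-109114394 and Hsp90ab1 at chr17:45359322-45364831, both on the minus strand. Hsp90aa1 was at 2231, 2712 and 2334 CPM in IR24 replicates 1, 2 and 3 and at 1113, 1132 and 1151 CPM in Sham. It rose 2.14-fold (log2 1.10, SE 0.14, edgeR adjusted p 0.00122). Hsp90ab1 was at 2405, 2368 and 2189 CPM in IR24 and at 1926, 1997 and 1959 CPM in Sham. Its log2 fold change was 0.24 (SE 0.14) and did not pass the test, at an edgeR adjusted p of 0.187, with a fold under the limit of 1.2 as well. By DESeq2 and without IR24 replicate 1 the adjusted p was 0.0189 and 0.0256, and the fold alone kept it from being called.

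The balance of the HSP90 pair was compared within each library. Counts of Hsp90aa1 divided by those of Hsp90ab1 gave 0.928, 1.15 and 1.07 in IR24 replicates 1, 2 and 3 and 0.578, 0.567 and 0.588 in Sham. This ratio within a library does not depend on how libraries are scaled. It was higher in every IR24 library, by 0.85 on the log2 scale (exact permutation p = 0.1, the smallest possible), and lay between 0.567 and 0.588 in Sham, a far narrower range than in IR24.

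The mitochondrial pair Hspd1 (HSP60) and Hspe1 (HSP10) are neighbours on chromosome 1 that are read in opposite directions. Hspd1 lies at chr1:52937913-52949205 on the minus strand and Hspe1 at chr1:52949094-52952282 on the plus strand, so their rows share 112 bases at the starts. Hspe1 was at 268, 236 and 223 CPM in IR24 replicates 1, 2 and 3 and at 83.3, 92.6 and 83.8 CPM in Sham. It rose 2.80-fold (log2 1.48, SE 0.10, edgeR adjusted p 0.000215). Hspd1 was at 286, 251 and 221 CPM in IR24 and at 127, 106 and 103 CPM in Sham. It rose 2.26-fold (log2 1.17, SE 0.13, edgeR adjusted p 0.000712).

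Both genes of the pair were highest in IR24 replicate 1 and lowest in IR24 replicate 3 within that group. The number of Hspd1 counts for each Hspe1 count was 1.07, 1.06 and 0.995 in IR24 and 1.52, 1.14 and 1.23 in Sham. It was lower in every IR24 library, by 0.31 on the log2 scale (exact permutation p = 0.1), although Sham replicate 2 was close to the IR24 libraries.

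Cryab encodes alphaB-crystallin, a small heat shock protein abundant in oligodendrocytes and astrocytes. Its row lies at chr9:47864806-47868695 on the plus strand. Levels were 190.2, 110.1 and 93.9 CPM in IR24 replicates 1, 2 and 3 and 57.0, 65.1 and 68.4 CPM in Sham. IR24 replicate 1 stood well above the other libraries of its group. The mean was 131 ± 51.6 CPM in IR24 and 63.5 ± 5.87 CPM in Sham (SD, n = 3 each), a rise of 1.05 on the log2 scale (SE 0.24, edgeR adjusted p 0.0108). Without IR24 replicate 1 the log2 fold change was 0.68 and the gene was still called.

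In IR24 replicate 1 the summed monocyte and macrophage markers were 179 CPM, against 98.5 and 99.7 CPM in IR24 replicates 2 and 3 and 10.7 to 13.2 CPM in Sham. The neuronal markers were lowest in that library, at 2429 CPM. Markers of oligodendrocytes and astrocytes, which express Cryab, summed to 6520 to 7640 and 5030 to 5340 CPM in IR24 and to 7650 to 9420 and 5450 to 5750 CPM in Sham. Microglial markers summed to 611 to 888 CPM in IR24 and 362 to 394 CPM in Sham, and endothelial markers to 361 to 548 and 264 to 265 CPM. Single markers within these sums moved both ways. Of 9 oligodendrocyte markers 1 was called higher and 3 lower, and of 9 astrocyte markers 3 and 4. Of 9 microglial markers 6 were higher and 2 lower, and of 7 endothelial markers 6 and 1. Over all genes tested 21.8% were higher and 19.9% lower. The part of these cell types in the changes of the 9 genes was not tested.

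Several of these genes have near-identical copies elsewhere in the genome, and reads that match more than 1 place may be lost or shared in counting. All 50-base stretches of each gene's GENCODE M21 transcripts (GRCm38) were searched, on either strand, in the transcripts of other genes. The share found measures how much of a gene may be affected. It also counts DNA that overlapping genes have in common, which is not a copy elsewhere. It was 0% for Hsph1, Bag3 and Hspa4. For Dnajb1 it was 0.412%, from a short repeat found in 533 other genes. For Hsp90ab1 it was 3.44%, from 6 pseudogenes, and for Cryab 13.3%, all with its neighbour Hspb2. Hspb2 is read in the opposite direction, and whether this part is a copy was not tested. For Hspe1 it was 22.8%, mostly (17.9%) with the predicted gene AC117239.2, whose position was not checked. Hspd1, which overlaps Hspe1 at the starts, gave 4.42%. The highest values were 42.1% for Hspd1, mostly with the pseudogene Hspd1-ps3, and 47.5% for Hsp90aa1, mostly with the pseudogenes Gm12346 and Gm5844. The counts of Hspe1, Hspd1 and Hsp90aa1 are therefore uncertain as levels.

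**Figure D2:**
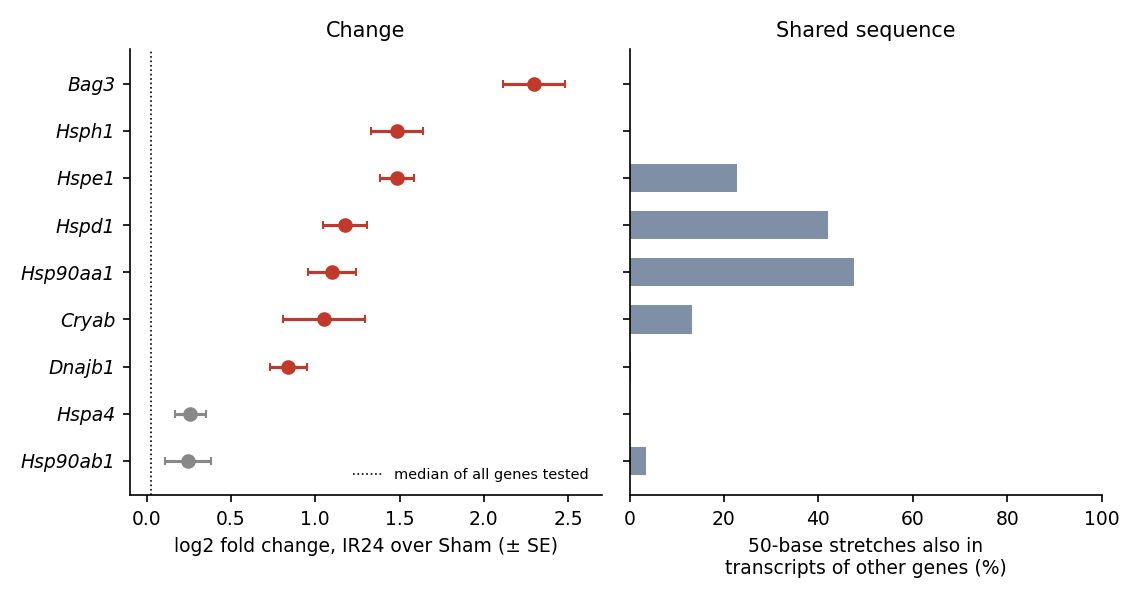
Left, log2 fold change of IR24 over Sham with its SE (edgeR, 3 libraries a group) for each gene, red where called higher and grey where not called, with the median of all genes tested as a dotted line. Right, the percent of 50-base stretches of the gene's transcripts that also occur in transcripts of other genes, from 0% for Bag3, Hsph1 and Hspa4 to 47.5% for Hsp90aa1. The genes with 0% shared have both the largest change (Bag3, 2.30) and one of the smallest (Hspa4, 0.26).

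The comparison with the single-copy genes was made within each library. The counts of Hspe1 divided by those of Hsph1 were 0.297, 0.224 and 0.304 in IR24 and 0.266, 0.279 and 0.266 in Sham. These ranges overlapped and their means differed by 0.01 on the log2 scale (exact permutation p = 1.0). Hspe1 and Hsph1, with 22.8% and 0% shared sequence, had changes of 1.48 and 1.49. Whether shared sequence affected the changes was not tested.

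The ratio to Hsph1 was lower in IR24 for Hspd1, by 0.30 on the log2 scale, with 0.317, 0.238 and 0.302 in IR24 and 0.406, 0.320 and 0.327 in Sham. The ranges almost touched. For Hsp90aa1 it was 2.48, 2.57 and 3.19 in IR24 and 3.56, 3.42 and 3.65 in Sham, which was lower by 0.38 on the log2 scale. For Hsp90ab1 it was 2.25 to 2.99 in IR24 and 6.03 to 6.22 in Sham, a shift of -1.23 on the log2 scale beside -1.21 for Hspa4. Cryab overlapped between the groups, at 0.211, 0.104 and 0.128 in IR24 and 0.182, 0.196 and 0.217 in Sham (exact permutation p = 0.3).

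Relative to Bag3, every other gene of the 9 was lower in IR24, without overlap. Bag3 had the largest change of the 9, so the direction of these shifts follows from its change. The shift was -0.79 on the log2 scale for Hspe1 and -0.80 for Hsph1, -2.03 for Hsp90ab1 and -2.02 for Hspa4, and between these values for the other 4 genes. Bag3 counts were 0.0530, 0.0384 and 0.0411 times those of Hsph1 in IR24 and 0.0228, 0.0265 and 0.0260 times in Sham, a shift of 0.80 on the log2 scale. The ratio was highest in IR24 replicate 1. In all, 18 ratios were compared by this exact permutation test, counting both Bag3 over Hsph1 and its inverse, Hsph1 over Bag3. Adjusting over them cannot bring any p below the 0.1 that the test allows.

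**Figure D3:**
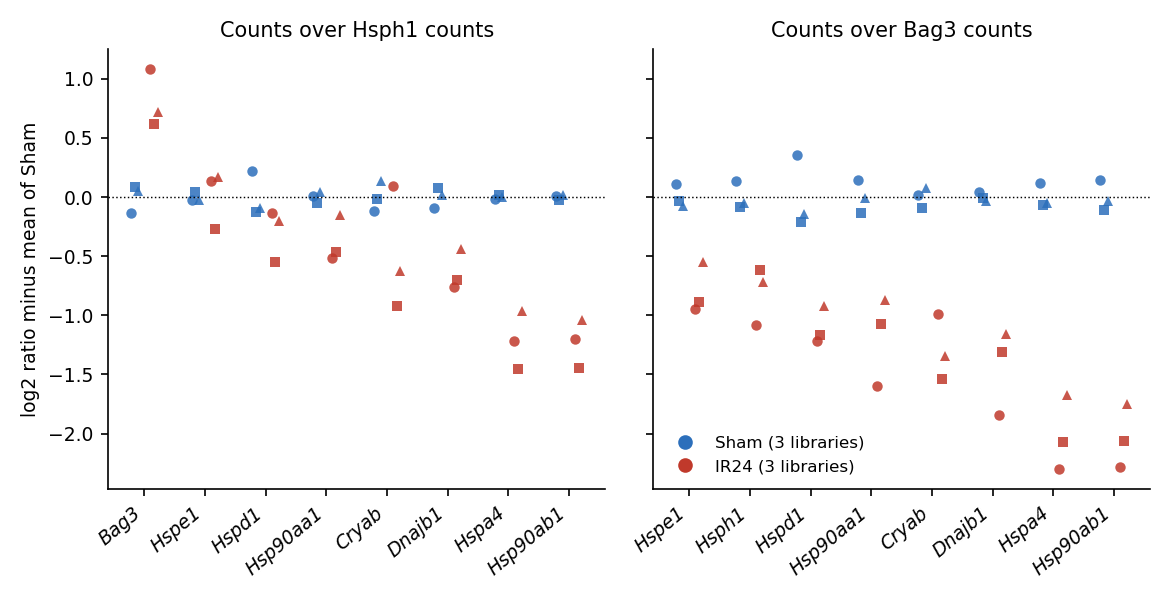
Counts of each gene divided by those of Hsph1 (left) or Bag3 (right) in the same library, as log2 ratios with the Sham mean set to 0. Blue points are the 3 Sham libraries and red points the 3 IR24 libraries (circle, square and triangle for replicates 1, 2 and 3). Over Hsph1, only Bag3 lies above the Sham points throughout and Hspe1 and Cryab overlap them. Over Bag3, the gene with the largest change, all genes lie below.

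Per unit of length, the order of the 9 genes in Sham was Hsp90ab1, Hsp90aa1, Hsph1, Hspa4, Hspe1, Hspd1, Cryab, Dnajb1 and Bag3. Mean FPKM (counts scaled by gene length and library total) in that order ran from 2039.5, 1035 and 150.3 over 96.7, 91.2, 70.4, 49.0 and 28.8 to 2.87. Hspa4 at 94.0 to 100.3 and Hspe1 at 88.2 to 96.7 FPKM overlapped across the Sham libraries, and the other neighbours did not. In IR24 the mean FPKM was 2886 for Hsp90ab1, 2644 for Hsp90aa1, 503 for Hsph1, 305 for Hspe1, 190.3 for Hspd1, 138 for Hspa4, 123 for Cryab, 61.4 for Dnajb1 and 16.9 for Bag3. Hspa4 thus ranked 4 in Sham and 6 in IR24. The FPKM ranges of Hsp90ab1 (2641 to 3148) and Hsp90aa1 (2475 to 2888) overlapped in IR24 but not in Sham, and in IR24 those of Hspa4 (132 to 147) and Cryab (84.1 to 185) overlapped as well. The lengths behind the deposited FPKM differed from the listed gene length for 6 of these genes, so the order in the middle depends on which length is used. So does the overlap of the HSP90 pair in IR24. The FPKM imply 880 bases for Hsp90ab1 and 1001 for Hsp90aa1, against 2520 and 3701 listed. At the listed lengths their IR24 means were 921 and 655 CPM per kilobase, and their Sham means 778 and 306.

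Heat shock factors bind repeats of the unit GAA or its reverse TTC. The letters GAANNTTC or TTCNNGAA (2 units), and the same with a further NNGAA or NNTTC behind them (3 units, which contain the 2-unit form), were searched on both strands in RefSeq promoter windows of GRCm38.p6, from 250 bases before to 50 bases after a gene's start. Windows were found for 6 of the 9 genes, namely Hspd1, Hspe1, Hsph1, Bag3, Dnajb1 and Hspa4. Of these, 4 held the 2-unit form, as did 17.0% of all 27025 genes with a window, and 3 held the 3-unit form, as did 0.662%. Hspd1 and Hspe1 held it at the same place, read on opposite strands, so that the 3 genes stand for 2 stretches of DNA. A match of letters is a description and not evidence of binding.

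A stretch at the starts of Hspd1 and Hspe1 is shown because both genes of the pair rose and it lies in a window of each. Hspd1 has another RefSeq start, whose window at chr1:55088194-55088493 (minus strand) held no match. The printed stretch covers chr1:55087948-55088147 (GRCm38.p6, plus strand), the 200 bases before the RefSeq start of Hspe1, with the matching units in capitals. They begin 89 bases before that start.

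Hspe1: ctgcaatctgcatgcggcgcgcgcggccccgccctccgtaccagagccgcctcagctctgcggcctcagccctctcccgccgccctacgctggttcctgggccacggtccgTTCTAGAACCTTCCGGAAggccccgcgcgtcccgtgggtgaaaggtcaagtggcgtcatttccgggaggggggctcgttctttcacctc

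Hsph1 and Bag3, the single-copy genes with the largest changes, are shown for comparison. The Hsph1 line covers chr5:149636337-149636436 (GRCm38.p6, minus strand), the 100 bases before its start, with a 2-unit match that begins 33 bases before the start.

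Hsph1: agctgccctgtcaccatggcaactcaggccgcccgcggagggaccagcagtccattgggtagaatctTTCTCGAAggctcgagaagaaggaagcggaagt

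A 3-unit match of Hsph1 lies just after the start, within chr5:149636287-149636316 (minus strand), and the match of Bag3, of 2 units, lies at the end of its window, within chr7:128523603-128523632 (plus strand). Only 30 bases of each are printed, with the matching letters in capitals.

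Hsph1 after the start: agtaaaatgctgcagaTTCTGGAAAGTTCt
Bag3 after the start: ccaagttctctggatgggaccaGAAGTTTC

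The windows of Dnajb1, which rose, and of Hspa4, which did not pass the test, held no match, which says only that these letters are not in these windows. The promoters of Hsp90aa1, Hsp90ab1 and Cryab were not analysed here.

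The genes whose pattern over the 6 libraries was most like that of 4 of the chaperones were sought by the root mean square difference of log2 CPM, each gene centred on its own mean. For Hsph1 they were Mapk12 (0.07), Gm26532 (0.09) and 1600002K03Rik (0.10). For Dnajb1 they were Pi4k2b (0.06), Gins1 (0.06) and Psma3 (0.07), the last a proteasome subunit. For Bag3 they were Igfbp7 (0.06), Mthfd2 (0.11) and Nupr1 (0.12) and for Cryab they included Vat1 (0.05). Among the 9 themselves, Hspe1 was the gene nearest to Hsph1, ranking 14 of the genes tested by this measure.

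Other chaperone genes were read in the same fit from 8 lists with 104 genes, of which 99 were tested. Of these, 34 were higher in IR24, 13 were lower and 52 were not called, beside 21.8% higher and 19.9% lower over all genes tested. With scaling by library size alone 54 were higher and 7 lower. The median log2 fold change was 0.16. The shares of 21.8% and 19.9% are also the background for the counts of each list below. The lists, like the chaperones described above, were chosen with earlier results of these data known.

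**Figure D4:**
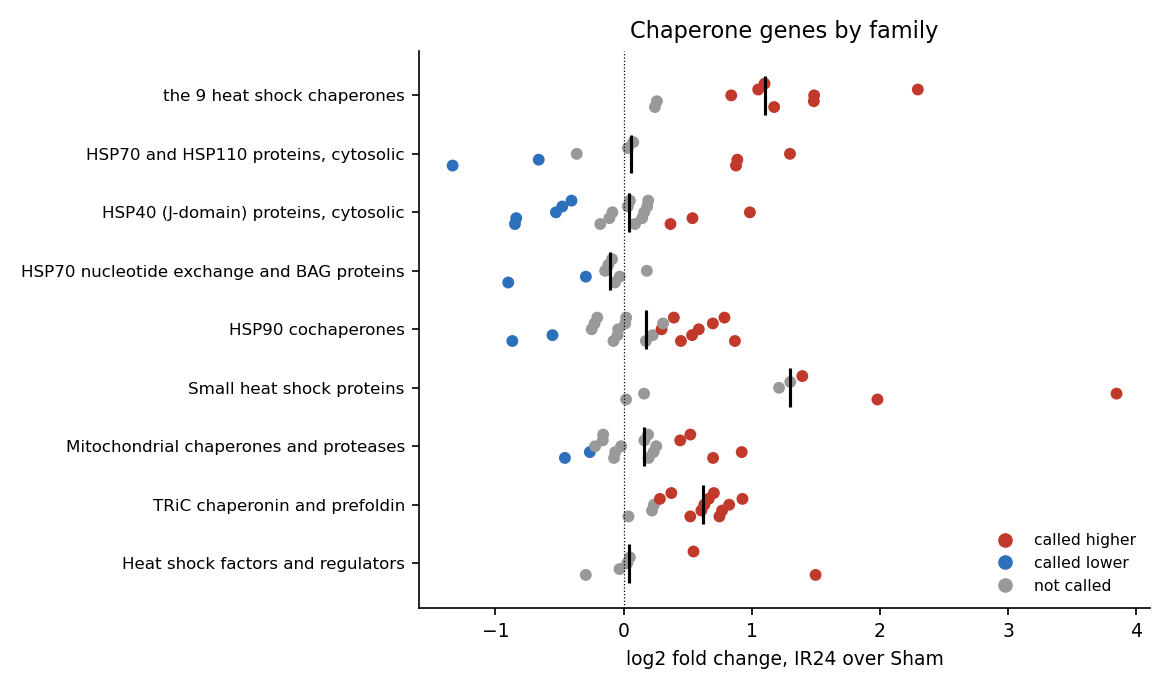
Log2 fold change of IR24 over Sham for the 9 heat shock chaperones and for the tested genes of 8 chaperone lists, 1 point a gene, red where called higher, blue where called lower and grey where not called, with a black line at each median. The TRiC and prefoldin genes lie at or above 0, and the J-domain and HSP90 cochaperone lists hold both rises and falls.

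Other genes of the HSP70 and HSP110 families moved both ways. Of 8 tested, 3 rose, namely Hspa12b (1.30, SE 0.31), Hspa14 (0.89, SE 0.10) and Hspa8 (0.88, SE 0.17). Falls were called for 2, Hspa12a (-1.33, SE 0.18) and Hspa2 (-0.66, SE 0.08), each value being a log2 fold change. Hspa8, the constitutive HSP70, is uncertain, since the same annotation text stood on an unnamed row of 842 bases on chromosome 9 and on a locus the authors assembled on chromosome 6. The first had 292, 191 and 203 CPM in IR24 and 111, 137 and 126 CPM in Sham, and the second 651, 665 and 682 CPM and 397, 451 and 396 CPM. Both rows were higher in IR24, and the chromosome 6 locus had a log2 fold change of 0.69 (SE 0.11).

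Of 18 tested J-domain genes beside Dnajb1, 3 rose (Dnajc2, Dnaja1 and Dnajb4, log2 fold changes 0.99, 0.54 and 0.37) and 5 fell. Beside them, 21.8% of all genes tested were higher and 19.9% lower. The falls were in Dnajc27, Dnajc6, Dnajb14, Dnajc5 and Dnajc18, at -0.85, -0.84, -0.53, -0.48 and -0.41. Dnajc6 (auxilin) and Dnajc5 (cysteine string protein) serve synaptic vesicles, and the neuronal markers were lower in the same libraries. Whether any of these falls relates to those markers was not tested. A list of BAG and other HSP70 partner genes beside Bag3 held Bag1, Bag2, Bag4, Bag5, Bag6, Hspbp1, Stub1 and St13. Of these 8, all tested, 0 rose by edgeR, also at an unadjusted p under 0.05 and by DESeq2 and limma-voom. Falls were called for 2, Bag4 (-0.90, SE 0.21) and Hspbp1 (-0.29, SE 0.10).

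Of 21 tested cochaperones of HSP90, 8 rose and 2 fell. The largest rises were in Cacybp (0.87, SE 0.14), Unc45a (0.79, SE 0.16) and Stip1 (0.70, SE 0.11), the last of which hands clients from HSP70 to HSP90. Tomm34 fell (-0.87, SE 0.13). The rise of Hsp90aa1, at 1.10, was larger than that of each cochaperone.

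Of 17 tested mitochondrial chaperones and proteases beside Hspd1 and Hspe1, 4 rose and 2 fell. These counts were near the shares over all genes tested, 21.8% higher and 19.9% lower. The rises were in Hspa9 (0.92, SE 0.12), the HSP70 of mitochondria, its exchange factor Grpel1 (0.70, SE 0.09), and the protease genes Lonp1 (0.52, SE 0.12) and Clpx (0.44, SE 0.08). Spg7 (-0.46, SE 0.08) and Dnaja3 (-0.26, SE 0.08) fell. All these log2 fold changes were below the 1.17 of Hspd1 and the 1.48 of Hspe1.

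The TRiC chaperonin, the ring of the cytosol that is related to HSP60, and its partner prefoldin had 11 of 14 tested genes higher and 0 lower (0 by each of the same checks), with a median log2 fold change of 0.62. The largest rises were in Pfdn4 (0.93, SE 0.22), Cct4 (0.82, SE 0.09) and Cct8 (0.77, SE 0.09). These were smaller than the changes of Hspd1 (1.17) and Hspe1 (1.48).

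Of the heat shock factors and regulators, Hsf1 had 40.1, 33.6 and 32.3 CPM in IR24 and 35.6, 36.1 and 30.9 CPM in Sham, or 0.05 on the log2 scale (SE 0.12, edgeR adjusted p 0.763). Hsf2 rose (0.55, SE 0.14), as did Hsf5 (1.50, SE 0.44) at counts of 5 to 24. The other 3 tested genes were not called.

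Of 7 tested small heat shock genes beside Cryab, 3 rose and 0 fell (0 by each of the same checks). Hspb8, the partner of Bag3, was at 65.4, 47.8 and 39.7 CPM in IR24 and 15.1, 20.3 and 22.8 CPM in Sham (log2 fold change 1.39, SE 0.21, edgeR adjusted p 0.00212). Hspb6 rose by 1.98 (SE 0.26) and Hspb3 by 3.85 (SE 0.66) on the log2 scale, the latter from counts of 1, 22 and 6 in Sham. Hspb2 starts 402 bases from Cryab and is read in the opposite direction. Its counts were 54, 38 and 29 in IR24 and 40, 49 and 11 in Sham, or 0.16 on the log2 scale (SE 0.49, edgeR adjusted p 0.818), against 1.05 for Cryab.

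Hspb1, which encodes HSP25 and is a familiar stress gene, could not be tested, with 1, 4 and 5 counts in IR24 and 0 in each Sham library. Its row at chr5:135798914-135800750 is covered over 86.6% of its span by an unnamed row on the same strand, and 50.1% of its 50-base stretches occur in other genes. One of these, the predicted gene Gm9817, was chosen for mention after its values were seen. It had 49.3, 33.3 and 29.4 CPM in IR24 and 2.05, 2.21 and 1.51 CPM in Sham, a rise of 4.27 on the log2 scale (SE 0.25, edgeR adjusted p 0.000169), larger than those of Cryab and Bag3. Which of the near-identical genes its reads came from cannot be told apart.

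**Figure D5:**
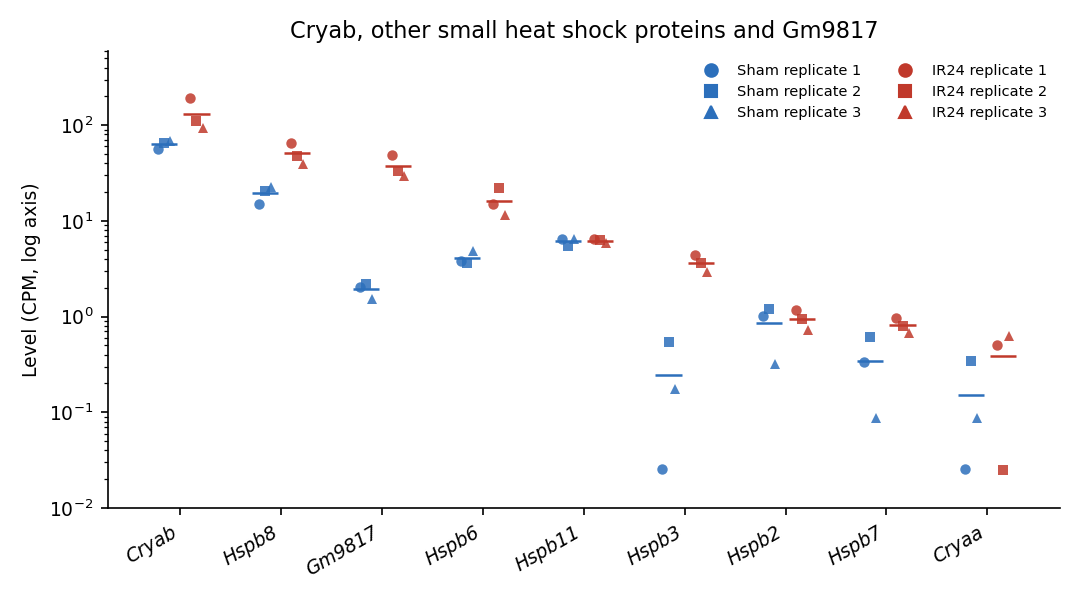
Level of Cryab, the tested small heat shock genes and Gm9817, which shares sequence with Hspb1, in every library, in CPM on a log axis. Blue points are Sham, red points IR24, short lines group means. Cryab, Hspb8, Gm9817, Hspb6 and Hspb3 have all IR24 libraries above all Sham libraries, as has Hspb7, which was not called, whereas Hspb11, Hspb2 and Cryaa overlap.

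The stress-inducible HSP70 genes, the usual partners of Hsph1, Dnajb1 and Bag3, could not be measured either. Hspa1a had 0 counts in all libraries and Hspa1b had 1, 0 and 1 in IR24 and 0 in Sham. The table places both at nearly the same position on chromosome 17, where their rows share 2114 bases, and 66.3% and 62.3% of their 50-base stretches occur in other genes. Of the 9 chaperones, Bag3 had 2.56%, Hspe1 3.51% and Hspd1 0.992% of their span under another row, and the other 6 had 0%.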

How the data were processed

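Hippocampal RNA was sequenced in 3 IR24 and 3 Sham libraries. Per the study's methods the authors aligned reads with TopHat 2 to an Ensembl genome and counted them per gene with HTSeq 0.6.1p2, and deposited raw counts and FPKM. The submitters' processing notes name Bowtie 0.12.2 and mm8 instead. The identifiers are those of the BALB/cJ annotation, another strain than the mice. Strand and multi-mapping settings are not given in the sources used here. Columns with the authors' fold changes and p-values were not used. The table had 4 split lines, which were rejoined. The 11253 genes without a name stayed in the fit.

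Counts were scaled by TMM, filtered by filterByExpr and tested with edgeR 4.0.16 (R 4.3.3, glmQLFit robust, glmQLFTest), with Benjamini-Hochberg adjustment over 18569 genes. SE is the log2 fold change over the square root of F. CPM uses TMM-scaled library sizes. DESeq2 1.42.0 and limma 3.58.1 (log2 of FPKM plus 1 or 0.1, and voom) were alternatives. The fit was also run on simulated counts in which few genes changed, as many up as down. In these data 41.8% of genes tested were called, so that run cannot judge the scaling. A genome search for shared sequence was planned, but transcripts were searched instead. Members and lists were chosen with earlier results of these data known. From the lists, the 3 largest rises and falls called and any gene called lower are named. A few genes that this rule and the likeness rule name are not reported here. Hspa8, Hspa14 and Cct6a were found by annotation text. The cell type lists were neurons, astrocytes, oligodendrocytes, microglia, endothelium, monocytes and macrophages, neutrophils, choroid plexus, erythrocytes, and smooth muscle and pericytes. The study calls the 3 libraries of each group biological replicates. A figure legend of the study names 3 hippocampal samples per RNA-seq replicate, which may be pools, so p-values measure the spread between these libraries. Counting intervals are not given, and PCR copies are not told apart.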

Additional observations from a re-analysis of the deposited data

How the results depend on the processing

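Of the 9 chaperones, 7 were called higher in the fit reported, 6 with a fold change over 2, 8 with at least 10 counts in every library or upper quartile scaling, 9 with library size only or FPKM, and 7 under every other alternative, including leaving out each library (7 to 7). Library size only moved the median of all genes from 0.03 to 0.28 on the log2 scale, and the FPKM fits to 0.18 and 0.26. Hsp90ab1 was then 0.50 with library size only (edgeR adjusted p 0.0129). Hspa4 was 0.52 there (0.00293), and 0.29 with the filter of 10 counts (0.0348) or upper quartile scaling (0.0325). Without Sham replicate 1 the adjusted p of Cryab was 0.0473, its highest, and with IR24 replicate 1 left out its log2 fold change fell from 1.05 to 0.68. Of the chaperone lists, 34 genes were called higher and 13 lower, against 54 and 7 with library size only, 52 and 7 with FPKM plus 1, 55 and 7 with FPKM plus 0.1, and 5 and 1 with a fold change over 2. With the 4 libraries high in choroid plexus RNA, 22 were higher, and with choroid plexus RNA as a covariate in all 6 libraries 33 were higher and 11 lower, both alternatives chosen after seeing the data. Leaving out each library gave 26 to 36 higher and 9 to 16 lower. The cause of these shifts was not tested. Deviations from the group means had correlations of -0.0967, 0.0556 and -0.184 between libraries with the same replicate number. With 3 libraries a group, and choroid plexus RNA varying within both, these values cannot show whether same-numbered libraries shared a day or batch. With the replicate number as a block 7 chaperones, 30 list genes higher and 10 lower were called. With stretches of 100 bases the shared sequence was 38.0% for Hsp90aa1, 23.9% for Hspd1 and 11.0% for Hspe1. The lowest count of the 9 chaperones in any library was 278. Hspa1a, Hspa1b and Hspb1 had too few counts to be tested, and the cause was not tested.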

Other observations

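Of all genes with a RefSeq promoter window, 17.0% held the 2-unit letters and 0.662% the 3-unit letters. Among the 85 genes of the chaperone lists with such a window, 23 held the 2-unit letters and 2 the 3-unit letters. The latter were Chordc1, an HSP90 cochaperone that rose by 0.30 on the log2 scale (SE 0.10, edgeR adjusted p 0.0485), and Dnajb6, which was not called (-0.11, SE 0.10, adjusted p 0.385). Smooth muscle and pericyte markers summed to 173 to 235 CPM in IR24 and 179 to 205 CPM in Sham, neutrophil markers to 6.47 to 32.1 and 0.407 to 1.61 CPM, and the 2 of 6 erythrocyte markers in the table to 2.12 to 3.49 and 1.94 to 2.99 CPM. Of the 7 smooth muscle and pericyte markers, 4 were called higher and 2 lower.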
